A study of Mus musculus with 16 samples.

Results

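The shared ATAC effect is the mean, gene by gene, of the changes in newly synthesized RNA measured in 2 mouse embryonic stem cell lines that each carry a lesion in a different subunit of the ATAC complex. One comparison sets AID-Yeats2 cells against the WT libraries of sequencing project 2, and the other sets AID-Zzz3 cells against the WT libraries of project 3. The 2 comparisons thus share no library, but both use the same 2 kinds of WT line. The mean therefore rests on 4 mutant and 4 WT libraries, 8 of the 16 libraries in the series. Of the 25797 genes present in the tables of both projects, 14909 passed the filter on low counts and were tested.

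All libraries came from E14 cells, an established mouse embryonic stem cell line, grown with serum, leukaemia inhibitory factor and the inhibitors CHIR99021 and PD0325901. AID marks an auxin-inducible degron fused to the named protein, and auxin (IAA) directs such a protein to degradation. Every line, WT included, received auxin for 24 h, and RNA was labelled with 4-thiouridine (4sU) for 15 min before purification, so the counts report recent transcription. Each mutant is represented by 2 independent clones. The 2 WT libraries of each project are different lines, since WT replicate 1 is plain WT and WT replicate 2 overexpresses Tir1 and BirA. Tir1 is the plant receptor through which auxin acts on a degron, and BirA is a bacterial biotin ligase. Protein levels of Yeats2 and Zzz3 were not analysed here.

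ATAC is a coactivator complex of animal cells that acetylates histones at promoters and shares its Gcn5 or Pcaf acetyltransferase module with the SAGA complex. Yeats2 carries a YEATS domain, which reads acylated histone H3, and forms a scaffold of ATAC. Zzz3 carries a ZZ zinc finger that binds the tail of the same histone and a Myb-like domain. In human cell lines, ATAC has been described at promoters of ribosomal protein genes.

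The libraries held 8267442 to 13002805 mouse gene counts and 803588 to 2296779 counts of S. pombe genes, the labelled spike-in. The shallowest mouse library was AID-Zzz3 clone 1 and the deepest was AID-Zzz3 clone 2. The targeted genes were still transcribed. In CPM, mouse gene counts brought to a common library size by the TMM method, Yeats2 was at 238 and 254 in WT of project 2 and at 108 and 185 in its degron clones. In project 3 it was at 243 and 265 CPM in WT and 286 and 283 CPM in the clones. Zzz3 was at 433 and 452 CPM in WT of project 3 and 289 and 302 CPM in its degron clones, and in project 2 at 416 and 440 CPM in WT and 424 and 450 CPM in the clones. Zzz3 RNA fell in AID-Zzz3 cells (log2 fold change -0.58, adjusted p = 0.0030, edgeR), while Yeats2 RNA in AID-Yeats2 cells, at -0.75, did not pass (adjusted p = 0.164). The clones of AID-Yeats2 differed from each other in Yeats2 RNA more than the WT lines did. The stem cell markers Pou5f1, Nanog, Zfp42 and Esrrb were transcribed in all 8 libraries, with Pou5f1 between 34.5 and 46.2 CPM and Zfp42 between 514 and 655 CPM.

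Averaged over both subunits, 811 genes rose (5.44% of those tested) and 703 fell (4.72%), together 10.2%, at an adjusted p under 0.05 in edgeR's quasi-likelihood test. The genes that fell included most genes of the large ribosomal subunit, elongation and initiation factors of translation, the CCT chaperonin and core splicing factors, and those that rose included most of the p53 target genes listed. Changes were mostly moderate, with a median absolute log2 fold change of 0.50 among called genes and a median standard error (SE) of 0.10. A log2 fold change of at least 1 was reached by 233 of the genes that rose and by 32 of those that fell. Of the 1514 called genes, 1511 had the same sign in both single comparisons and 1465 had every clone beyond both WT libraries of its project. Over all genes tested, 12.3% had every clone above and 12.8% had every clone below both WT libraries. The call used the same values and favours genes with equal signs and separated libraries, so these counts are no separate evidence of agreement. Leaving out AID-Yeats2 clone 1 left 336 genes higher and 204 lower, and leaving out AID-Yeats2 clone 2 left 417 and 296. The lower count was also 438 without the Tir1/BirA WT library of project 2 and 453 without AID-Zzz3 clone 1.

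The subunits agreed in sign for nearly all genes called in either. Taken alone, the AID-Yeats2 comparison called 210 genes higher (1.41%) and 149 lower (0.999%), and the AID-Zzz3 comparison called 254 higher (1.7%) and 140 lower (0.939%). Both called 228 genes, 135 higher (0.905%) and 93 lower (0.624%), and none of these with opposite signs. That overlap was 63.5% of the AID-Yeats2 calls and 57.9% of the AID-Zzz3 calls. Of the 359 genes called in AID-Yeats2, 357 had the same sign in AID-Zzz3, and of the 394 called in AID-Zzz3, 388 had the same sign in AID-Yeats2. Sizes were also close. Genes called higher in AID-Yeats2 had a median log2 fold change of 0.86 there and 0.77 in AID-Zzz3, and those called lower had -0.69 and -0.53. Genes called higher in AID-Zzz3 had a median of 0.92 there and 0.69 in AID-Yeats2, and those called lower had -0.63 and -0.60. The counts called in both depended on single libraries, at 17 higher and 18 lower without AID-Yeats2 clone 1, 23 and 25 without AID-Yeats2 clone 2, 31 and 35 without the Tir1/BirA WT library of project 2, and 82 and 36 without AID-Zzz3 clone 1.

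Across all 14909 genes the 2 effects had the same sign in 71.8% of genes, with a Pearson r of 0.564 and a Spearman rho of 0.539. These describe genes, which are not independent replicates. Clone by clone, the effects of the 2 AID-Yeats2 clones had an r of 0.693 and those of the 2 AID-Zzz3 clones 0.586, while clones of different mutants had 0.45 to 0.552. Clones of 1 mutant share the WT libraries they were set against, and clones of different mutants do not. Both projects used the same 2 kinds of WT line, so a trait of these lines can enter both effects. Its part in the agreement was not tested. Averaging reached genes that neither comparison called by itself, since 1001 of the 1514 genes were called in neither single comparison.

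**Figure D1:**
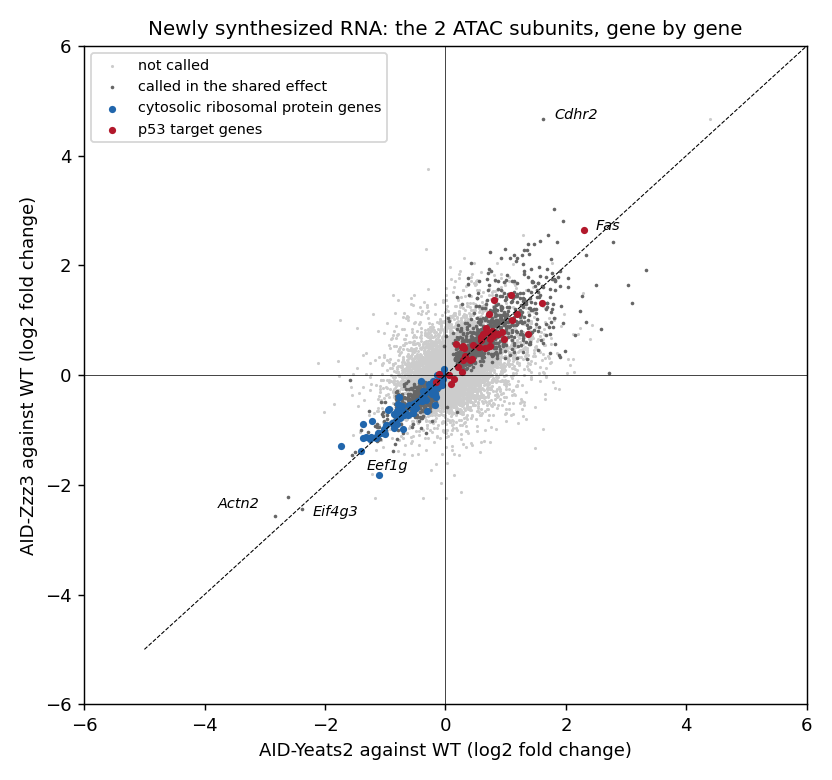
Log2 fold change of each gene tested in AID-Yeats2 cells (horizontal axis) and in AID-Zzz3 cells (vertical axis), each against the WT libraries of its own project. Grey points are all genes, darker where called in the shared effect, blue points are cytosolic ribosomal protein genes and red points p53 target genes, and the dashed line marks equal effects. Ribosomal protein genes lie along the line at the lower left and p53 target genes at the upper right.

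Genes for cytosolic ribosomal proteins, the protein parts of the ribosome, formed the group with the most members lower. Of 44 large-subunit genes tested, 34 fell and none rose, and the median log2 fold change was -0.72 (-0.78 in AID-Yeats2, -0.65 in AID-Zzz3) against 0.00 over all genes tested. Of 32 small-subunit genes, 15 fell, none rose, and the median was -0.45 (-0.40 and -0.50). Every clone was below both WT libraries of its project for 37 of the large-subunit and 18 of the small-subunit genes. The large-subunit genes of the list together held 2411 to 3175 CPM in the WT libraries and 1438 to 1937 CPM in the mutant clones, so the groups did not overlap. The small-subunit genes held 2098 to 2754 CPM in WT and 1341 to 1805 CPM in the clones.

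Rps24, a small-subunit protein (chromosome 14, 24487125 to 24496959 in mm10), was at 179 and 221 CPM in WT and 87.8 and 95.3 CPM in the AID-Yeats2 clones. In project 3 it stood at 183 and 187 CPM in WT and 78.8 and 97.9 CPM in the AID-Zzz3 clones. All 4 clones were far below all 4 WT libraries, a separation favoured by naming Rps24 for its small p. Its shared log2 fold change was -1.09 ± 0.09 (SE, adjusted p = 4.7e-05, edgeR). Rpl31, a large-subunit protein (chromosome 1, 39367842 to 39371911), stood at 83.8 and 91.0 CPM in WT of project 2 and 41.2 and 41.9 CPM in AID-Yeats2. It stood at 75.4 and 69.1 CPM in WT of project 3 and 31.1 and 38.4 CPM in AID-Zzz3. Its single effects were nearly equal, at -1.07 and -1.05. The shared effect of Rpl31 was -1.06 ± 0.08 (adjusted p = 3.6e-05).

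The largest falls among ribosomal protein genes were those of Rpl29 (-1.51 ± 0.19), Rpl36 (-1.46 ± 0.23) and Rpl9 (-1.40 ± 0.14), all of the large subunit. Rpl29 and Rpl36 were transcribed at low levels, 7.44 to 11.7 CPM and 3.14 to 5.92 CPM in WT. Rpl37a, Rpl35, Rpl38 and Rpl27 fell by 1.26, 1.22, 1.22 and 1.03 on the log2 scale, and the small-subunit gene Rps18 by 1.15. Not all members moved. Rpl4 stood at 205 to 275 CPM in WT and 192 to 252 CPM in the clones, with a shared log2 fold change of -0.05. Rpl4 was chosen after its values were seen. Ribosomal protein genes have many processed pseudogenes, and how reads shared with these copies were counted is not given in the sources used here. The mitochondrial ribosomal proteins, which serve a separate ribosome, did not share the pattern: 1 of 72 fell, Mrpl17 (-0.66 ± 0.08), and the median was -0.01. The 59 ribosome biogenesis genes held 8 that fell (13.6%, against 4.72% of all genes tested) and 1 that rose, with a median of -0.06. Single libraries moved the lower count to 2 (without AID-Yeats2 clone 1 or the Tir1/BirA WT library of project 2), 3 (AID-Yeats2 clone 2), 4 (either AID-Zzz3 clone) or 5 (plain WT of project 3). Nop2, an RNA methyltransferase of the nucleolus, fell by 0.48 and Pes1 by 0.35, while Utp20, a processome component, rose by 0.29 under TMM and had -0.14 under spike-in scaling.

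The promoter letters of 3 of these ribosomal protein genes are shown because the family fell together, beside those of Cct7 and Eif4g3, which also fell, and of Plk2, a p53 target that rose. Each run is the 250 bases before the RefSeq start (GRCm38.p6, the coordinates of mm10), 5′ to 3′ on the gene's strand. Capitals mark any match, on either strand, to 7 motifs searched. CCGGAAG is the letters of ETS factors and AAGATGGC those of YY1. TATAAA is the TATA box and CACGTG the E-box. CCAAT is bound by NF-Y and is known by its own letters. GGGCGG is the box of SP factors and GCGCATGC a site of NRF1. The windows are chr2:39005132-39005381 (minus strand) for Rpl35, chr11:114668330-114668579 (plus) for Rpl38, chr17:33955666-33955915 (minus) for Rps18, chr6:85451255-85451504 (plus) for Cct7, chr4:137993205-137993454 (plus) for Eif4g3 and chr13:110394794-110395043 (plus) for Plk2.
Rpl35: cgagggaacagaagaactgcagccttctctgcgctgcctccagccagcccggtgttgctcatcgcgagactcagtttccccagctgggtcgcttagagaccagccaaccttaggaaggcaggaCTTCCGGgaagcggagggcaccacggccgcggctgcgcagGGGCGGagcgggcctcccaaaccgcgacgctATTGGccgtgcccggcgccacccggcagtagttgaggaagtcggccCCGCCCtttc
Rpl38: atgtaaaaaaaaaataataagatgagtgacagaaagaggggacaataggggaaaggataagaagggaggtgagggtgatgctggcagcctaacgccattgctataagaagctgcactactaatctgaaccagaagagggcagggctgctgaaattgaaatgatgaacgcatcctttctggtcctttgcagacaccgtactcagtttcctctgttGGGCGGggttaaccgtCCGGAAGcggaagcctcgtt
Rps18: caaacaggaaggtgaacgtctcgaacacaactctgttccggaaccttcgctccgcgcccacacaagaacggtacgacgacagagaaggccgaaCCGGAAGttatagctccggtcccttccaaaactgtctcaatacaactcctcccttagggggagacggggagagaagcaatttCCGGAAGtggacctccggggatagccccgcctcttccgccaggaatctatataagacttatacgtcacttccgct
Cct7: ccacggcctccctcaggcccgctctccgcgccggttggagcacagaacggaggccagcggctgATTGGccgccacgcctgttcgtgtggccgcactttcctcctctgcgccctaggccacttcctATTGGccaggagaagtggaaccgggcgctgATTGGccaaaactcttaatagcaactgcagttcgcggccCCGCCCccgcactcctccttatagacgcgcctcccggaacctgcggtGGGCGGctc
Eif4g3: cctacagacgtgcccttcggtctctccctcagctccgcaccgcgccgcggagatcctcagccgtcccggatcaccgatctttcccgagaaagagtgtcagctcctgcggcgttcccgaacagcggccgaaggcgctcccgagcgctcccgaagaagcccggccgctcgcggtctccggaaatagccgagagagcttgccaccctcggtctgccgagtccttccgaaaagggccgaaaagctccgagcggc
Plk2: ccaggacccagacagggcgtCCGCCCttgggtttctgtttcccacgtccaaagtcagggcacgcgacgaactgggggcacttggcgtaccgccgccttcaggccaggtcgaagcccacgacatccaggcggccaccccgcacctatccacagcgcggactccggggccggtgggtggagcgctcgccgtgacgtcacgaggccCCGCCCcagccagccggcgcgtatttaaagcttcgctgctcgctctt

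Rpl35 and Rpl38 each carry the ETS-type letters and GGGCGG or its reverse complement, and Rps18 carries the ETS-type letters at 2 places. Rpl35 also carries ATTGG, the reverse complement of CCAAT. Cct7 carries ATTGG at 3 places and has no ETS-type match. Eif4g3, with the second largest fall of the named genes, has none of the 7 motifs in this window. Over windows of 300 bases (250 before to 50 after the start, 1 per gene), 23 of the 56 ribosomal protein genes with a RefSeq promoter in the table held CCGGAAG (41.1%), against 9.12% of all 27025 promoters and 17.5% of the 10849 promoters of tested genes. Among the ribosomal protein genes, 18 of 39 that fell held it (46.2%) and 5 of 17 that were not called (29.4%). Outside this family the share among genes that fell was 15.8%, and among genes that rose 11.2%. GGGCGG stood in 70.3% of promoters of genes that fell, 54.6% of those that rose and 62.6% of all tested. GCGCATGC stood in 8.5%, 2.68% and 5.31%. The TATA letters differed little, at 7.05%, 8.54% and 7%, as did CCAAT at 39.4%, 35.8% and 38.9%. A match describes letters in a window and no binding was measured.

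Some other genes of protein synthesis and folding fell with the ribosomal proteins, led by a few large changes. Of 49 translation factors, 9 fell (18.4%) and none rose (median -0.13). Over all genes tested 4.72% fell, and of the 2982 with the highest levels 9.62%. The count of translation factors lower was 4 without AID-Yeats2 clone 1 and 5 without AID-Yeats2 clone 2 or the Tir1/BirA WT library of project 2. Eif4g3, an initiation scaffold of the eIF4G family (chromosome 4, 137993022 to 138208508), stood at 121 and 146 CPM in WT and 21.9 and 29.2 CPM in AID-Yeats2. In project 3 it stood at 141 and 132 CPM in WT and 19.5 and 29.9 CPM in AID-Zzz3. No clone came near a WT library, but having every clone below both WT libraries of its project was a condition of naming Eif4g3. Its log2 fold changes were -2.38 in AID-Yeats2 and -2.44 in AID-Zzz3, and the shared effect was -2.41 ± 0.15 (adjusted p = 5.9e-05, edgeR). Eef1g, a subunit of the elongation factor that reloads eEF1A with GTP, stood at 197 to 271 CPM in WT and 69.8 to 104 CPM in the clones, and fell by 1.45 ± 0.17. Eif3d, a subunit of initiation factor eIF3, fell by 0.88 ± 0.09 and Eef2, the translocation factor, by 0.60 ± 0.09. Aminoacyl-tRNA synthetases, which charge tRNAs, had 3 of 19 lower (15.8%), Gars (-0.28) and Sars (-0.37) among them. Cars was higher under TMM (0.29, and -0.13 under spike-in scaling). The lower count was 0 without AID-Yeats2 clone 1, 1 without AID-Yeats2 clone 2, either AID-Zzz3 clone or the Tir1/BirA WT library of project 3, and 2 or 3 without the others.

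The CCT chaperonin folds actin and tubulin among other proteins. Of the 25 heat shock and chaperonin genes listed, 7 fell (28%, against 4.72% of all genes tested) and none rose. Of the 7, 6 encode CCT subunits (4 of the list fell without AID-Yeats2 clone 1). Cct7 (chromosome 6, 85451514 to 85468475) stood at 135 and 143 CPM in WT and 62.2 and 65.7 CPM in AID-Yeats2, and at 122 and 116 CPM in WT and 48.6 and 56.0 CPM in AID-Zzz3. All 4 clones lay well under every WT library, a separation favoured by naming Cct7 for its small p. The shared effect of -1.15 ± 0.07 had the smallest p of all genes tested (adjusted p = 2e-05, edgeR). Cct4 fell by 0.80 ± 0.08, Tcp1 by 0.44, Cct8 by 0.43, Cct2 by 0.35 and Cct5 by 0.24, whereas Cct3 had -0.01. The seventh gene, Hspd1, encodes the mitochondrial chaperonin (-0.31). The cytosolic Hsp90 genes Hsp90ab1 and Hsp90aa1 had 0.17 and 0.12 and did not pass the test. In this list, Tcp1, Cct2, Cct5, Cct3, Hspd1 and the Hsp90 genes were chosen after their values were seen. Unfolded protein response genes of the endoplasmic reticulum had 4 of 23 lower (17.4%), with Hyou1 at -0.43, and none higher. Single libraries moved the lower count to between 0 and 4. The 31 proteasome genes held none called in either direction, with a median of -0.01 and values from -0.28 to 0.26.

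Some splicing factors and hosts of small nucleolar RNAs also fell. Of 38 spliceosome and SR protein genes, 8 fell (21.1%, against 4.72% of all genes tested) and none rose (median -0.10). The lower count was 4 without AID-Yeats2 clone 1 and 5 without AID-Yeats2 clone 2. Snrpb, a core Sm protein of spliceosomal particles, stood at 46.6 to 57.7 CPM in WT and 23.5 to 25.7 CPM in the clones, and fell by 1.02 ± 0.08 (adjusted p = 4e-05, edgeR). Snrnp70 and Srsf4 fell by 0.40 and 0.43. Sf3b3, a subunit that both the U2 splicing particle and SAGA contain, stood at 462 to 513 CPM in WT and 275 to 293 CPM in the clones, and fell by 0.76 ± 0.06. The small nucleolar RNA hosts carry in their introns the RNAs that guide modification of ribosomal RNA. Of 13 tested, 4 fell (30.8%) and none rose, and the median was -0.51. Snhg17 stood at 91.6 to 121 CPM in WT and 44.3 to 55.1 CPM in the clones and fell by 1.02 ± 0.09, followed by Snhg12 (-0.62) and Epb41l4aos (-0.51). Without AID-Zzz3 clone 2 the list had 10 members lower, and without the Tir1/BirA WT library of project 2 or without AID-Yeats2 clone 1 it had 1. The count was 2 without the Tir1/BirA WT library of project 3 or AID-Zzz3 clone 1.

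**Figure D2:**
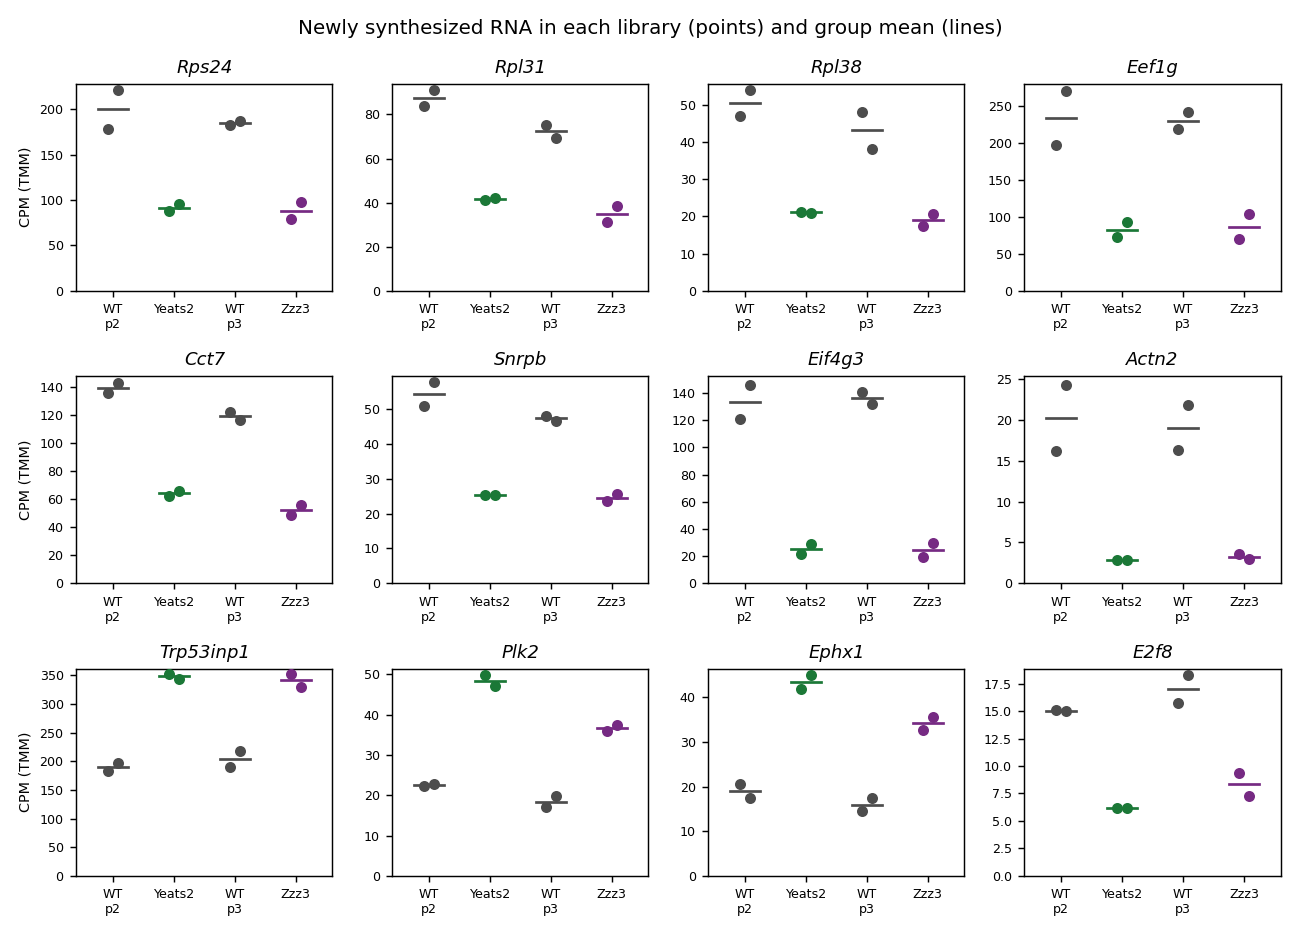
CPM (TMM-scaled, vertical axes starting at 0) of 12 named genes in each library, as points, with group means as lines. Groups are WT of project 2, AID-Yeats2, WT of project 3 and AID-Zzz3, with plain WT and clone 1 on the left of each pair. For each gene shown, both clones of each mutant lie beyond both WT libraries of the same project. For Eif4g3, Actn2, Eef1g and Rpl38, named among the largest falls, this was a condition of being chosen.

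Genes of S phase and DNA replication tended lower. Of 51 tested, 18 fell (35.3%, against 4.72% of all genes tested), none rose, and the median was -0.27. E2f8, a repressor of the E2F family, stood at 15.1 and 15 CPM in WT and 6.13 and 6.2 CPM in AID-Yeats2, and at 15.7 and 18.3 CPM in WT and 9.37 and 7.3 CPM in AID-Zzz3. It fell by 1.16 ± 0.13 (adjusted p = 0.00024, edgeR). Ccne2, cyclin E2, fell by 1.04 ± 0.12, from 24.9 to 37.3 CPM in WT to 10.5 to 18.1 CPM in the clones. The replication clamp Pcna, thymidylate synthase Tyms and the single-strand binding subunit Rpa1 fell by 0.57, 0.50 and 0.39 (Pcna and Tyms were chosen after their values were seen). The count of 18 was 7 without AID-Yeats2 clone 1, 9 without AID-Yeats2 clone 2 or without AID-Zzz3 clone 2, and 10 without the Tir1/BirA WT library of project 2. Against plain WT alone it was 12, and against Tir1/BirA WT alone 23. This list also had a median log2 difference of 0.13 between the Tir1/BirA and plain WT lines, and the part of that difference in the result was not tested. Of 41 mitosis genes, Cdk1 (-0.39) and Nuf2 (-0.32) fell and Spc25 rose by 0.27 under TMM (-0.16 under spike-in scaling), a share near that of all genes. The lower count was 1 without AID-Yeats2 clone 1 and 6 without plain WT of project 3.

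Targets of p53, the transcription factor that answers DNA damage and other stress, rose as a group. Of 40 tested, 28 rose and none fell under TMM, with a median log2 fold change of 0.64 (0.64 in AID-Yeats2, 0.65 in AID-Zzz3) against 0.00 over all genes. Every clone was above both WT libraries of its project for 30 of them. The 40 genes together held 2554 to 2934 CPM in WT and 3780 to 4147 CPM in the clones. Under spike-in scaling 15 of the 40 rose and 4 fell, with a median of 0.21 against -0.43 for all genes.

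Trp53inp1, a proapoptotic cofactor of p53, stood at 183 and 196 CPM in WT and 353 and 344 CPM in AID-Yeats2, and at 190 and 218 CPM in WT and 353 and 329 CPM in AID-Zzz3. The groups did not overlap, a separation favoured by naming Trp53inp1 for its small p. Its shared effect was 0.81 ± 0.06 (adjusted p = 4.1e-05, edgeR). Plk2, a stress-responsive kinase, stood at 22.4 and 22.7 CPM in WT and 49.8 and 47.0 CPM in AID-Yeats2, and at 17.1 and 19.8 CPM in WT and 35.9 and 37.4 CPM in AID-Zzz3, and rose by 1.05 ± 0.08. Ephx1, a microsomal epoxide hydrolase, rose by 1.15 ± 0.10, from 14.4 to 20.5 CPM in WT to 32.7 to 44.9 CPM in the clones. Mdm2, the ubiquitin ligase that restrains p53, rose by 0.75 ± 0.08 and Bbc3, which encodes the death effector Puma, by 1.28 ± 0.13. Cdkn1a, the cell cycle inhibitor p21, rose by 0.41 ± 0.07 under TMM and had -0.02 under spike-in scaling. RNA of Trp53 itself stood at 64.5 to 77.0 CPM in WT and 67.4 to 78.7 CPM in the clones (0.01 ± 0.08). Members that did not pass the test included Gdf15 (0.86, adjusted p = 0.078) and Xpc (-0.15). Mdm2, Bbc3, Cdkn1a, Trp53, Gdf15 and Xpc were chosen after their values were seen.

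**Figure D3:**
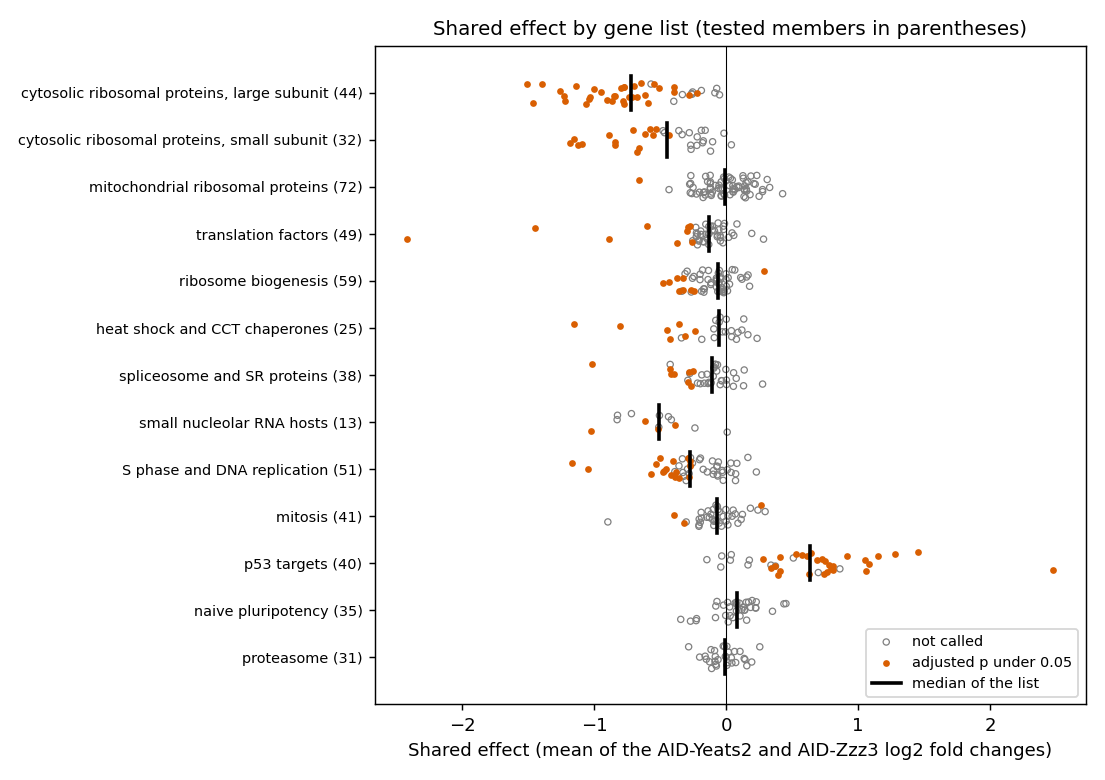
Shared log2 fold change (horizontal axis) of each tested member of 13 gene lists, filled where the adjusted p was under 0.05, with the median of each list as a bar. Vertical scatter within a list is random. Ribosomal protein lists lie to the left, p53 targets to the right, and mitochondrial ribosomal proteins, proteasome and naive pluripotency genes around 0.

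The largest rises of the named genes were mostly in genes transcribed at a few CPM or less. For these genes, having every clone above both WT libraries of its project was a condition of being named. Over all genes tested the highest shared effect was 4.53, in a gene outside the naming rule. Cdhr2, a protocadherin of epithelial brush borders, stood at 1.14 and 1.27 CPM in WT and 4.09 and 3.40 CPM in AID-Yeats2, and at 0.0858 and 0.0941 CPM in WT and 3.00 and 2.23 CPM in AID-Zzz3. The WT libraries of project 3 held 2 counts of it in all against 54 in the clones, a ratio of 28.2 (exact 95% interval 7.44 to 239, counting error only). Its fitted shared effect of 3.15 ± 0.33 rests in part on those 2 counts. Fas, the death receptor and a p53 target, stood at 0.188 to 0.667 CPM in WT and 1.84 to 2.70 CPM in the clones (2.48 ± 0.39). Plcd4, a phospholipase, Nipal4, a magnesium transporter, and Dnm3, a dynamin, rose by 1.90, 1.77 and 1.77. Ms4a10, of the membrane-spanning MS4A family, rose by 1.81 ± 0.20, from 1.91 to 3.05 CPM in WT to 7.97 to 11 CPM in the clones. Slc45a1, a sugar transporter, Htr4, a serotonin receptor, and Col6a4, a collagen chain, rose by 1.93 ± 0.35, 2.14 ± 0.38 and 1.89 ± 0.36. In WT they stood at only 0.188 to 0.571, 0.188 to 0.515 and 0.282 to 1.52 CPM, so these sizes rest on few WT counts. Neb, which encodes the giant sarcomere protein nebulin, rose by 2.12 ± 0.34, with 1.91 to 5.43 CPM in WT and 11.1 to 23.5 CPM in the clones.

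Among the largest falls, Actn2 and Ahsg were the only named genes outside protein synthesis. Actn2, a sarcomeric alpha-actinin (chromosome 13, 12269426 to 12340760), stood at 16.2 and 24.3 CPM in WT and 2.86 and 2.80 CPM in AID-Yeats2, and at 16.3 and 21.8 CPM in WT and 3.6 and 2.92 CPM in AID-Zzz3. Every clone was several times lower than every WT library. Having every clone below both WT libraries of its project was a condition of naming Actn2 and Ahsg. The shared effect of Actn2, -2.70 ± 0.18 (adjusted p = 2.6e-05, edgeR), was the largest fall of the named genes. Ahsg, the serum glycoprotein fetuin-A, was near the limit of the filter at 1.79 to 2.12 CPM in WT and 0.480 to 0.846 CPM in the clones (-1.51 ± 0.29). Other muscle structure genes did not follow Actn2. Of 10 tested, Neb, Ldb3 (0.97) and Ttn (0.46) rose and Actn2 alone fell (Ldb3 was chosen after its value was seen). Without AID-Yeats2 clone 1, 1 of the 10 rose. The listed muscle genes in the tables together held 454 to 586 CPM in WT and 556 to 694 CPM in the clones, while Myh6, Myh7 and Acta1 did not pass the filter on low counts.

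No gene passed the threshold in the test of the difference between the AID-Yeats2 and AID-Zzz3 effects (0%, edgeR), and 307 of 14909 (2.06%) had an unadjusted p under 0.05. DESeq2 called 2 genes, and edgeR called 7 with no filter on low counts, 4 under spike-in scaling and 2 without AID-Zzz3 clone 2. For called genes of the shared effect, the difference had a median absolute size of 0.12 and a median SE of 0.19, so differences of the size of the typical effect could be missed gene by gene. The smallest p belonged to Cdh4, which encodes retinal cadherin (unadjusted p = 2.05e-05, adjusted p = 0.306). It stood at 241 and 215 CPM in WT and 276 and 247 CPM in AID-Yeats2, and at 245 and 244 CPM in WT and 152 and 156 CPM in AID-Zzz3. Its 2 effects had opposite signs, 0.20 and -0.67, and differed by 0.86 ± 0.13. Zzz3 itself differed by 0.61 ± 0.11 (unadjusted p = 0.000157, adjusted p = 0.780) and Yeats2 by -0.91 ± 0.31 (unadjusted p = 0.0241).

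The other genes named for the smallest p of the difference had unequal effects that did not pass the test. Hmga2, an architectural chromatin protein, had 0.12 in AID-Yeats2 and -0.46 in AID-Zzz3. Car2, carbonic anhydrase, had 0.49 and -0.08, and Ankrd45, an ankyrin repeat gene, 1.07 and 0.36. Foxp1, a forkhead transcription factor, had 0.05 in AID-Yeats2 and 1.00 in AID-Zzz3, with 60.1 and 40.8 CPM in the AID-Zzz3 clones against 25.2 and 25 CPM in WT. Ece1, endothelin-converting enzyme, had 0.01 and 0.71, Vgll3, a cofactor of TEAD factors, -0.34 and 0.73, and Fbxw4, an F-box protein, -0.14 and 0.51. None had an adjusted p under 0.05 in the test of the difference. In the shared effect, Cdh4 was nonetheless called lower and Ankrd45, Foxp1 and Ece1 higher. The shared values of Cdh4, Foxp1 and Ece1 came mostly from AID-Zzz3, and their calls held in 8, 12 and 10 of 20 other fits. Some genes that carried the shared effect differed by about their error or less, with differences of 0.06 ± 0.28 for Eif4g3, -0.06 ± 0.17 for Rps24, 0.06 ± 0.14 for Cct7, -0.16 ± 0.16 for Snrpb and 0.11 ± 0.17 for Plk2. Others differed by more without passing the test, among them Cdhr2 (1.63 and 4.67, difference -3.04 ± 0.74) and Rpl27 (difference -0.37 ± 0.20).

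Genes of stem cell identity were not among those that changed. None of 35 naive pluripotency genes tested was called, and their median was 0.08, with values from -0.34 (Manba) to 0.45. Nanog stood at 178 to 224 CPM in WT and 189 to 209 CPM in the clones (0.03 ± 0.07), and Pou5f1, Zfp42 and Esrrb had -0.07, 0.05 and -0.08. Esrrb was 544 CPM in AID-Zzz3 clone 1 and 712 to 804 CPM in the other 7 libraries. Of 18 formative and primed genes, Nodal, a TGF-beta family ligand, rose by 0.47 ± 0.08 and Sox4 by 0.99 ± 0.24. Among markers of other cells, 1 of 13 primitive endoderm genes rose (Dab2, 0.53), 1 of 10 neural genes fell (Stmn2, -0.53), and none of 6 trophectoderm, 3 two-cell-like or 10 fibroblast genes was called. The primitive endoderm genes together held 1033 to 1244 CPM in WT and 1101 to 1234 CPM in the clones, so the ranges overlapped. The list's median was 0.34 (0.26 in AID-Yeats2, 0.42 in AID-Zzz3), 12 of the 13 members were above 0, and 6 had every clone above both WT libraries of its project, Pdgfra (0.72), Col4a1 (0.44) and Lamb1 (0.34) among them, with adjusted p-values over 0.05. Without 1 library 0 to 2 members were called, and the part of this list in the other results was not tested. Its members Sox17, Sox7 and Foxa2 did not pass the filter on low counts. Genes of the coactivator complexes were called about as often as all genes tested (10.2%) or less. Among 10 genes of ATAC-specific subunits only Zzz3 was called, itself a degron target, with 0.03 in AID-Yeats2 and -0.58 in AID-Zzz3. Of 19 SAGA-specific genes 2 fell (Sf3b3 and Atxn7l1, -0.50), and none of 12 TFIID genes was called. Of 27 genes of the amino acid stress response, 7 fell (25.9%, against 4.72% of all genes tested), among them the amino acid transporter Slc7a5 (-0.42). In the same list 3 rose (11.1%, against 5.44%), among them Ddit4 (1.07) and Sesn2 (0.63), which is also in the p53 list. The 7 became 0 without AID-Yeats2 clone 1, 1 without AID-Yeats2 clone 2, 3 without AID-Zzz3 clone 1 and 4 or 5 without any other library.

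Genes that rose and genes that fell differed in length and level. Among protein-coding genes, the median genomic span was 53.7 kb for the 702 that rose, 29.6 kb for the 674 that fell and 28.7 kb for all 12942 tested. The share that rose climbed with span, from 1.91% of genes under 5 kb to 11.3% of genes of 200 kb or more, while the share that fell stayed between 3.89% and 5.78%. The median log2 fold change over all genes of a bin moved from -0.03 to 0.09, and from -0.03 to 0.07 in AID-Yeats2 and -0.04 to 0.12 in AID-Zzz3 taken alone. Median levels also differed between bins, from 4.35 CPM under 5 kb to 66.0 CPM at 100 to 200 kb. Protein-coding genes that fell were transcribed at a median of 61.4 CPM, against 19 CPM for those that rose and 18.5 CPM for all. Of the 2982 genes with the lowest levels (up to 2.33 CPM) 0.134% fell and 4.12% rose, and of the 2982 with the highest (from 75.7 CPM) 9.62% fell and 5.6% rose. Low counts limit which falls can be called, and the part of level in the relation with span was not tested.

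**Figure D4:**
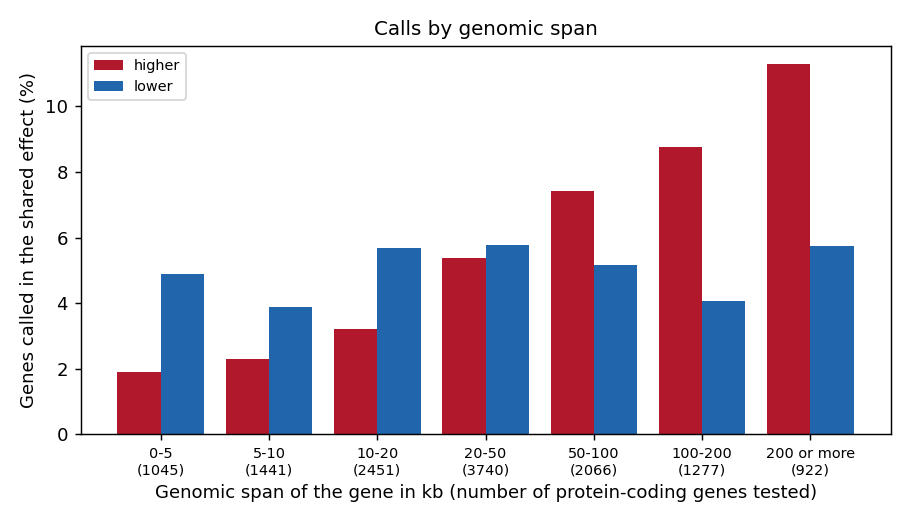
Share of protein-coding genes called higher (red) or lower (blue) in the shared effect, in percent (vertical axis, from 0), by genomic span in kb (horizontal axis, number of genes tested in parentheses). Bars for genes that rose climb from 1.91% to 11.3% and those for genes that fell stay between 3.89% and 5.78%.

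Of 728 lincRNA genes, 8.24% rose and 1.65% fell. Gm13067, the non-coding gene with the smallest p, stood at 38.0 and 38.0 CPM in WT and 77.8 and 75.2 CPM in AID-Yeats2, and at 32.1 and 30.9 CPM in WT and 69.7 and 61.5 CPM in AID-Zzz3. It rose by 1.03 ± 0.07 (adjusted p = 2.6e-05, edgeR). The non-coding genes 5830418P13Rik and Gm26569 rose by 1.61 ± 0.14 and 1.21 ± 0.12, and 5430416N02Rik fell by 0.93 ± 0.08. By chromosome the median shared effect lay between -0.05 and 0.03 on the autosomes, X and Y. The 19 mitochondrial genes had a median of 0.28 and none was called. The library kit marked strand, and whether counting used strand is not given in the sources used here, so reads of genes that overlap on opposite strands may be mixed. This touches, among others, Rpl31 (with Tbc1d8, 0.20), Plcd4 (with Usp37, -0.16, and Zfp142, -0.12) and Ccne2 (with Ints8, -0.00). It also touches Slc7a5 (with Gm20388, -0.07) and Ahsg (with CT027991.1, -0.23). The partners given here were transcribed at higher levels and were not called.

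Set against the spike-in, mouse 4sU RNA was lower in every mutant clone than in both WT libraries of its project. The ratio of mouse to S. pombe effective library size was 6.64 and 6.62 in WT of project 2 and 4.29 and 5.13 in AID-Yeats2. It was 14.1 and 12.8 in WT of project 3 and 10.4 and 10.5 in AID-Zzz3. The mean log2 difference was -0.43, or 74.3% of WT (exact stratified permutation test, two-sided, p = 0.0556, the smallest p that 36 arrangements allow). Fewer cells and less RNA per cell cannot be told apart in such bulk samples. Under TMM the typical gene is held at no change, so the effects given above are relative to it. Scaled by the spike-in, the median of all genes was -0.43 (-0.49 in AID-Yeats2, -0.36 in AID-Zzz3), 327 genes rose (2.19%) and 8362 fell (56.1%). All 703 genes lower under TMM were lower there too, and 297 of the 811 higher genes were called higher on both scales. Of the other genes higher under TMM, 190 had a log2 fold change below 0 with the spike-in and none was called lower. The labels name the spike-in as the basis of normalization, and in the authors' deposited tables the genes at an adjusted p under 0.05 in both mutants were 13 higher and 2772 lower, with none opposite.

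**Figure D5:**
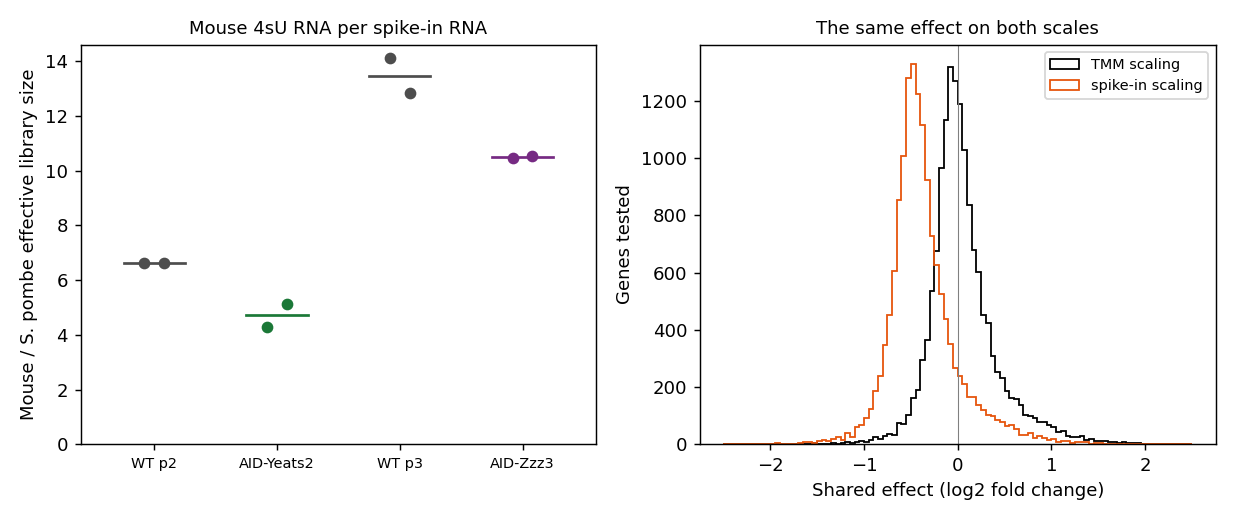
Left, ratio of mouse to S. pombe effective library size (vertical axis, from 0) in each library, with group means as lines, where both clones of each mutant lie below both WT libraries. Right, number of genes by shared log2 fold change under TMM (black) and spike-in scaling (orange), with medians of 0.00 and -0.43.

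The shared effect was also set against that of AID-Tada3, a subunit of the acetyltransferase module common to ATAC and SAGA, in 1 edgeR fit of all 14 4sU libraries, a comparison chosen after these data were seen. AID-Tada3 has its own WT libraries (project 1). In that fit AID-Tada3 called no gene higher (0%) and 11 lower (0.0713%), against 960 (6.22%) and 996 (6.46%) for the shared effect. These counts differ in power, since the AID-Tada3 contrast rests on 2 mutant and 2 WT libraries and the shared effect on 4 and 4. The single comparisons of AID-Yeats2 and AID-Zzz3, of the same size as that of AID-Tada3, called 359 and 394 genes in the fit of 8 libraries. The difference, shared effect minus AID-Tada3 effect, was positive for 310 genes (2.01%) and negative for 129 (0.836%). Eif4g3 had 0.13 ± 0.18 in AID-Tada3, and the difference of -2.55 ± 0.24 passed (adjusted p = 0.00051). Cct7 had -0.23 ± 0.09 (difference -0.93 ± 0.11), Rps24 -0.21 ± 0.10 (-0.89 ± 0.13) and Trp53inp1 -0.06 ± 0.08 (0.87 ± 0.10). Of the 20 genes named for the largest rises and falls, 14 passed this test of the difference and 6 did not, namely Fas, Htr4, Slc45a1, Dnm3, Nipal4 and Ahsg. These 20 genes were picked for a large shared effect in the same libraries, which by itself favours a large difference. Actn2 also fell in AID-Tada3 (-1.32 ± 0.23, adjusted p = 0.037), though by less (difference -1.38 ± 0.30, adjusted p = 0.018). By list, the difference passed for 16 of 44 large-subunit genes (all negative), 7 of 32 small-subunit genes (all negative), 20 of 40 p53 targets (all positive) and 3 of 51 S phase genes (all negative). Tada3 RNA itself fell in AID-Tada3 (-1.28 ± 0.19) and had 0.04 ± 0.14 in the shared effect. Supt7l-/- cells, which lack a SAGA core subunit, share the project 2 WT libraries with AID-Yeats2, so only their values are given (34 genes higher, 0.22%, and 63 lower, 0.408%). There Eif4g3 had -0.29, Cct7 -0.07, Rps24 -0.20, Actn2 -0.98, Trp53inp1 0.11 and Plk2 0.49. Other genes had values close to their shared effect, with Fas at 2.2, Plcd4 at 1.82, Nipal4 at 1.59, Ddit4 at 1.07 and Ahsg at -1.19, none of them called in Supt7l-/- cells. In Supt7l-/- cells the medians of the large-subunit, small-subunit, p53 and S phase lists were -0.12, -0.11, 0.16 and -0.20. In AID-Tada3 cells they were -0.13, -0.13, -0.08 and -0.15. The shared effect of this fit had -0.73, -0.45, 0.63 and -0.27, so the S phase list differed least between the mutants.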

How the data were processed

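Raw read counts per mouse gene and spike-in gene were deposited by the authors, together with, per the file headers, a normalized signal (also per transcript length), log2 fold changes and p-values of each mutant against WT. Tools named in the submitters' processing notes include STAR (2.5.3a), HTSeq (0.6.1p1) and DESeq2 (1.16.1), with roles not given in the sources used here. The builds are mm10 and, for S. pombe, ASM294v2.

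Everything else was computed from the raw counts of 8 libraries with R 4.3.3, edgeR 4.0.16, limma 3.58.1 and DESeq2 1.42.0 (figures with Python 3.11.15 and matplotlib 3.10.9). Genes in both tables passed filterByExpr (minimum count 10), libraries were scaled by TMM, and 1 mean per group was fitted with edgeR's robust quasi-likelihood model (4 residual degrees of freedom). The shared effect is the mean of the mutant-minus-WT contrasts of both projects, and the difference is the AID-Yeats2 minus the AID-Zzz3 contrast. Benjamini-Hochberg adjustment ran over all 14909 genes tested, with a threshold of 0.05, and adjusted p-values are from edgeR. The SE is the absolute log2 fold change over the root of the F statistic. Spike-in factors were medians of ratios over S. pombe genes with at least 10 counts in every library of a project. Replicates are separate clones or WT lines.

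Named genes are the targets; the 10 largest rises and falls (protein-coding with a full symbol, same sign in both effects and under the spike-in, mean of at least 1 CPM, every clone beyond both WT libraries of its project); the 3 members of each list and the 5 non-coding genes with the smallest p; and 5 genes per direction for the difference. The gene set, the lists and this rule were chosen with earlier results of these data known. Promoters are RefSeq entries of GRCm38.p6, matched by symbol. Alternatives were other scalings, filters, tools, WT lines and single libraries left out. Some genes that the rule names are not reported here. The scripts were tested on simulated data. Reads carry no molecular identifiers, so intervals cover counting error only.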

Additional observations from a re-analysis of the deposited data

How the results depend on the processing

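Against spike-in scaling, whose construction lowers every effect by the drop in mouse RNA, 327 genes were higher and 8362 lower, 4 differed between the mutants, 66 were called higher and 3675 lower in both, and 32 small-subunit ribosomal protein genes, 49 S phase genes (lower) and 15 p53 targets (higher) were called. Under it Utp20 (-0.14), Cars (-0.13), Spc25 (-0.16), Ahr (-0.075), Mxi1 (-0.10), Cad (-0.12) and Ece1 (-0.063) were among the genes that changed sign. With no filter on low counts the calls were 1293 higher and 1172 lower, 7 different, and 316 higher and 264 lower in both. DESeq2 gave 2 different. The fit of all 14 4sU libraries gave 157 lower in both, and plain WT alone 216 higher and 141 lower in both. The cause was not tested beyond the construction of each setting. Leaving out 1 library gave 336 to 738 higher, 204 to 638 lower, 0 to 2 different, 17 to 113 higher and 18 to 74 lower in both, and 7 to 19 S phase genes lower. Replicate numbers name clones and WT lines and do not pair mutants with WT, since correlations of deviations involving a mutant lay between -0.09 and 0.09. The same kind of WT line in projects 2 and 3 had a correlation of 0.37. Between the WT lines, edgeR called 531 of 14909 genes, and 32 of these were also called in the shared effect. A fit with the replicate number as a block called 142 genes lower in both. Of 89 called named genes, 50 kept the call in every fit. With 2 libraries per group, low counts and 4 residual degrees of freedom limit calls on weakly transcribed genes.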
